A study of Enallax costatus with 10 samples.

Results

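A set of 12 assembly genes of the green alga Enallax costatus, of 32478 in the deposited tables, had higher RNA levels in dry drops of culture and in drops rewetted for 1 h than at any stage before. The members were chosen from measured values. In each of the 4 Dry and Rehydrated libraries a member had to lie at least 4 times above the highest of the 6 earlier libraries. Its mean Dry and mean Rehydrated values had to differ by less than 4-fold, and it needed 10 or more expected counts in all 4 Dry and Rehydrated libraries. The values used are the deposited TMM-scaled expression, a length-normalised level divided by a scaling factor per library. The high Dry and Rehydrated levels below are therefore a description of how the genes were chosen, not a finding.

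The strain was CCAP 276-31, a desert alga, grown for 6 weeks in flasks in BBM+WH medium, and no genotype or added agent separates the stages. Drops of 40 µL were placed on cover glasses and sampled as Hydrated (at once), as Early desiccation (2.5 h, 25% of the volume lost), as Late desiccation (7.5 h, 60% lost), as Dry (about 24 h, with 11 h more in the drying chamber after the drops had flattened) and as Rehydrated (1 h after water was added back). Each stage had 2 libraries. The labels do not say that these came from separate cultures, so p-values measure the spread between these libraries, which may be technical.

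Many green algae that live on desert soils survive the loss of nearly all cell water. In plants and algae that do so, dry cells are known to hold RNA for proteins that protect membranes, pigments and other proteins, and some of this RNA is still found when water returns. In general, a transcript seen at a high level both in the dry state and shortly after rewetting can have been kept or made anew, and an RNA level does not separate these. In bulk RNA, fewer cells with a transcript and less of it per cell cannot be told apart either. The tables pair no assembly gene with a gene name, so the role of a member is not known here, and no sequence is shown for any.

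Members are numbered 1 to 12 by their mean CPM, counts scaled to the TMM-adjusted library size, over the Dry and Rehydrated libraries, an order that is not corrected for length and serves only to name them. Member 1 is TRINITY_DN211705_c7_g2 and member 2 is TRINITY_DN196001_c0_g1, the pair with the highest mean. TRINITY_DN219391_c10_g13 (member 3) and TRINITY_DN244144_c1_g1 (member 5) had the most negative fitted change from Dry to Rehydrated.

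Library totals ran from 1974807 to 3867190 expected counts. The Rehydrated libraries were unlike each other, with 1343 genes at 100 or more counts in replicate 1 and 319 in replicate 2, against 2043 to 4728 in the other libraries. The labels give no batch, but the libraries split across stages: 143 genes had at least 3 counts in both Rehydrated libraries and in replicate 2 of Hydrated and of Late desiccation, and none in the other 6. No member could be among these genes, since the other 6 include both Dry libraries, where the rule demands counts. Both Dry libraries lie on one side of this split and both Rehydrated libraries on the other. From these libraries alone, Dry against Rehydrated and the split cannot be told apart for the members. A fitted term for the split rests on Hydrated and Late desiccation, which have a library on each side. It assumes the same shift at every stage.

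The members' rule was met by few genes. Of 3075 genes with 10 or more counts in all Dry and Rehydrated libraries, 25 had the 4-fold gap over the earlier libraries, and 12 of these had Dry and Rehydrated means within 4-fold. The other 13 all had the higher mean in Dry, and 0 had a mean at least 4-fold higher in Rehydrated. A further 8 genes had the gap but too few counts. Just inside the gap lay member 8 at 4.10 and member 11 at 4.17 times the highest earlier value, and just outside were genes at 3.88 and 3.86 times. At the limit on the means, members 5 and 3 were inside with Dry 3.47-fold and 3.19-fold above Rehydrated, and the nearest genes outside were at 5.24-fold and 5.97-fold. At the count limit, member 9 was inside with a lowest count of 10 and member 12 with 11, while the nearest genes outside had 3.

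**Figure D1:**
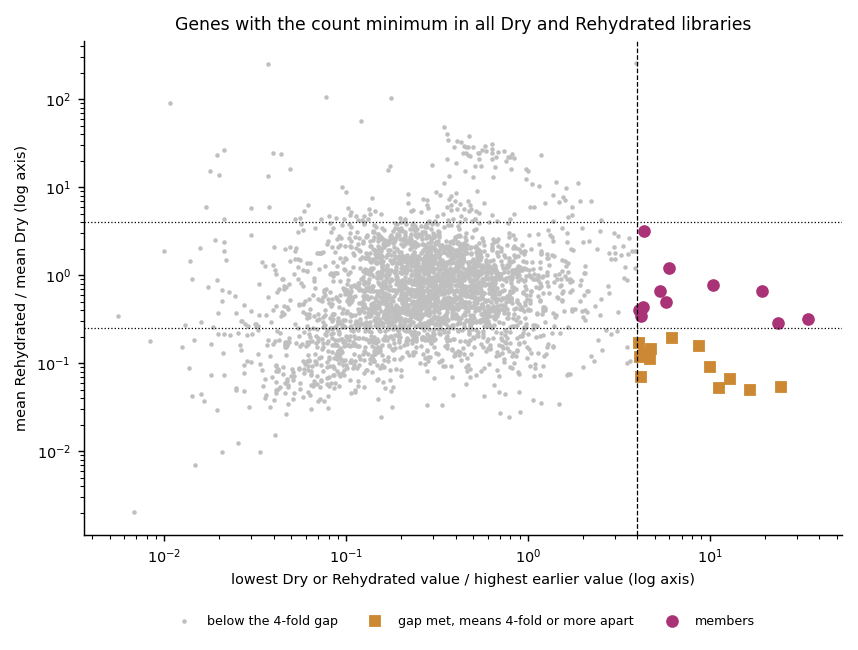
Each point is 1 of the 3075 genes with 10 or more counts in all Dry and Rehydrated libraries, by the ratio of its lowest Dry or Rehydrated value to its highest earlier value (x, log axis; genes at 0 in every earlier library are not drawn) and by mean Rehydrated over mean Dry (y, log axis). The 12 members lie right of the dashed line between the dotted lines, the 13 genes with a higher Dry mean lie below them, and no gene with the gap lies above.

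Member 1 stood apart from the other 11 in level, length and course. Its deposited value was 66.045 and 50.5 in Hydrated, 37.4 and 84.9 in Early desiccation, 77.3 and 81.8 at Late desiccation, 367 and 392 in Dry, and 749 and 1637 in Rehydrated (replicates 1 and 2). It was already among the more abundant genes before drying, and both Rehydrated libraries lay above both Dry libraries, which held for 1 of the 12 members. Its expected counts were 23185 and 32277 in Dry and 45200 and 65289 in Rehydrated, against 6824 to 15904 earlier. As a share of all counts it took 0.928% and 0.869% in Dry and 2.29% and 3.21% in Rehydrated, and between 0.198% and 0.411% in the 6 earlier libraries. By deposited value it ranked 41 and 25 among all genes in Rehydrated, 196 and 218 in Dry, and 178 to 476 before drying. Its Dry ranks lay between its Late desiccation ranks of 178 and 222, so by rank it did not rise from Late desiccation to Dry. Its effective length, judged from count over deposited value, was 6.45 times that of the median gene, the longest of the set.

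The fitted log2 fold change of member 1 was 2.99 (SE 0.75) in Dry against Hydrated and 5.07 (SE 0.83) in Rehydrated against Hydrated (edgeR adjusted p = 0.0281 and 0.00999), both on contrasts the rule had used. The Dry call was lost without any single library of the stages other than Rehydrated (adjusted p 0.0581 to 0.243) and without a filter on low counts (0.140), with fitted values of 2.79 to 3.19 when a library was left out. With a fitted term for the split of the libraries, member 1 was called neither in Dry against Hydrated nor in Dry against Late desiccation. Rehydrated against Dry was 2.08 (SE 0.72, edgeR adjusted p = 0.0728). That difference passed the threshold under upper-quartile scaling (adjusted p = 0.0474), by DESeq2 (0.00440) and without Rehydrated replicate 1 (0.0118), over a range of 0.00440 to 0.370 for its alternatives.

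Members 2 to 7 and 9 shared a second course: low before drying, high in Dry and in Rehydrated replicate 1, and much lower in Rehydrated replicate 2. Member 2 had deposited values of 4.02 and 3.69 in Hydrated, 3.35 and 1.84 in Early desiccation, 3.57 and 2.87 at Late desiccation, 150 and 231 in Dry, and 138 and 16.8 in Rehydrated. It was the only one of these 7 with more than 100 counts in every earlier library (105.64 to 225). The low Rehydrated value is 206.09 counts (exact Poisson 95% interval 179 to 236, counting error only), 4.17 times the highest earlier value after scaling.

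Member 3 had the widest gap of all members. Its values were 0.598 and 0.606 in Hydrated, 0.407 and 0.466 in Early desiccation, 0.306 and 0.579 at Late desiccation, 251 and 483 in Dry, and 209 and 21.0 in Rehydrated. In counts this is 3 to 10 before drying, 1429 and 3591 in Dry, and 1173 and 78 in Rehydrated. Even the lower Rehydrated library was 34.6 times the highest earlier value, and the fitted log2 fold change in Dry against Hydrated was 9.48 (SE 1.10, edgeR adjusted p = 0.00169).

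Member 5 had the lowest median value of this group before drying. It was at 0.232 and 0.267 in Hydrated, 0 and 0.075 in Early desiccation, 0.136 and 0.108 at Late desiccation, 135 and 169 in Dry, and 81.3 and 6.32 in Rehydrated. These values rest on 0 to 6 counts in each earlier library and on 1194 and 1954 counts in Dry. Its fitted log2 fold change in Dry against Hydrated was 9.48 (SE 1.21, edgeR adjusted p = 0.00218), and Rehydrated replicate 2 held 36 counts (exact Poisson 95% interval 25.2 to 49.8).

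Member 9 is the shortest member, with an effective length 0.0757 times that of the median gene, so few reads stand behind its levels. Its values were 0.957 and 0.981 in Hydrated, 0.789 and 0 in Early desiccation, 0 in both Late desiccation libraries, 157 and 279 in Dry, and 271 and 19.0 in Rehydrated. Counts were 0 to 2 in each earlier library, 100 and 237 in Dry, and 210 and 10 in Rehydrated. Against Late desiccation, taken at 3 counts over both libraries, mean CPM was at least 192-fold higher in Dry and at least 161-fold higher in Rehydrated. The bound was 132 and 252 for the Dry libraries taken singly, and 290 for Rehydrated replicate 1 and 32.5 for replicate 2. The 10 counts of Rehydrated replicate 2 have an exact Poisson 95% interval of 4.80 to 18.4, which spans the count limit of the rule.

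Members 4, 6 and 7 completed this group, and in all of them Rehydrated replicate 1 was above both Dry libraries. Member 4 was at 0.305 to 1.61 before drying, at 93.8 and 139 in Dry, and at 165 and 16.8 in Rehydrated. Member 6 was at 0.593 to 1.51 before drying, at 31.9 and 55.7 in Dry, and at 96.9 and 9.03 in Rehydrated. Member 7 was at 0.284 to 0.587 before drying, at 19.7 and 18.2 in Dry, and at 21.7 and 3.11 in Rehydrated. Member 7 was also the single member whose Dry replicate 2 was not above replicate 1.

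Members 8, 10, 11 and 12 differed from these in that their Rehydrated libraries lay closer together. Member 8 was at 0.606 to 2.51 before drying, at 15.04 and 54.6 in Dry, and at 17.4 and 10.3 in Rehydrated. Member 10 was at 0 to 0.832 before drying, at 13.6 and 17.5 in Dry, and at 10.8 and 4.80 in Rehydrated. Their Rehydrated values lay below the higher Dry value in both cases.

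Members 11 and 12 had the lowest mean values of the set in Dry and in Rehydrated. Member 11 was at 0.083 to 0.635 before drying, at 4.98 and 14.3 in Dry, and at 2.65 and 3.94 in Rehydrated. Member 12 was at 0 to 0.591 before drying, at 2.53 and 14.5 in Dry, and at 3.13 and 4.23 in Rehydrated. Dry replicate 2 was 2.86 times replicate 1 in member 11 and 5.76 times in member 12, where replicate 1 held 11 counts. In member 11 both Rehydrated values lay below both Dry values, and in member 12 both lay between them.

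**Figure D2:**
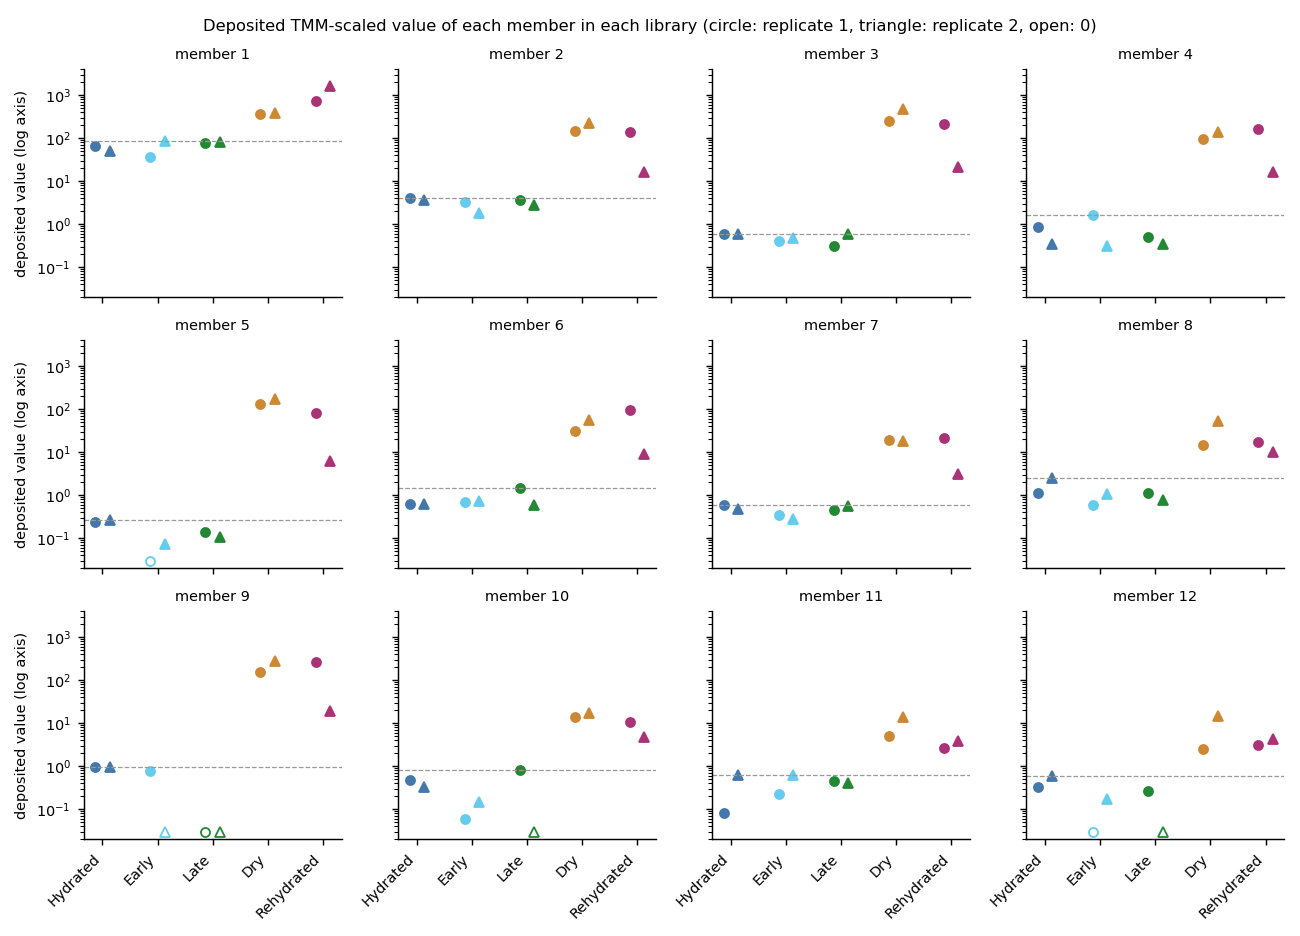
Each panel shows 1 member, with the deposited TMM-scaled value (y, log axis) in the 2 libraries of each stage (circles replicate 1, triangles replicate 2, open symbols at the bottom a value of 0) and a dashed line at the highest of the 6 earlier values. All Dry and Rehydrated symbols lie above the line in every panel, as the rule demands, and in members 2 to 7 and 9 the Rehydrated triangle lies far below the circle.

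The rule bears on the spread between the Rehydrated libraries through the lowest value, the mean and the count minimum, and a gene with a low replicate 2 stays within the limit on the means only if replicate 1 is high. Shares are therefore given as a description, and nothing is read from them. Rehydrated replicate 1 was 8.23 times replicate 2 in member 2, 9.97 times in member 3, 9.83 times in member 4, 12.9 times in member 5, 10.7 times in member 6, 6.98 times in member 7 and 14.3 times in member 9. In these 7 of the 12 members (58.3%) replicate 2 was under 0.2 of replicate 1, compared with 529 of the 3075 genes with the same count minimum (17.2%). The median ratio of replicate 2 to replicate 1 was 0.132 over the members and 0.503 over the 3075 genes. Members 1, 11 and 12 went the other way, with replicate 2 at 2.18 (member 1), 1.49 (member 11) and 1.35 (member 12) times replicate 1. Among the 13 genes that met the gap but had a higher Dry mean, 4 had replicate 2 under 0.2 of replicate 1.

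**Figure D3:**
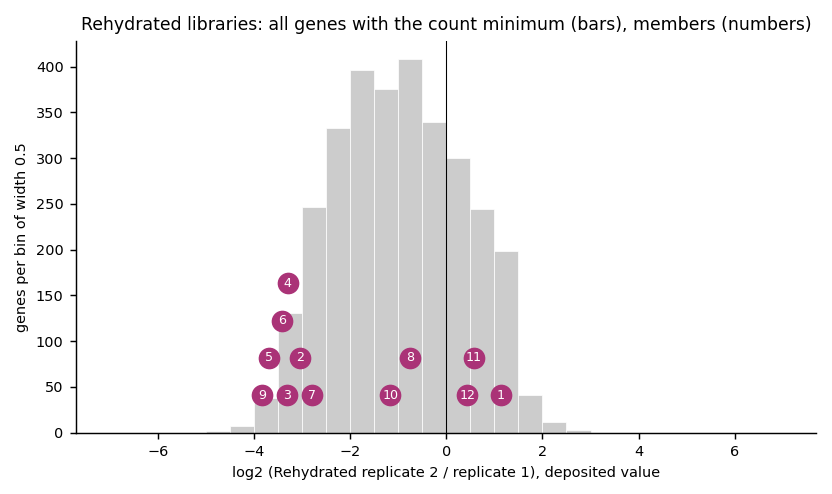
Bars count the 3075 genes with 10 or more counts in all Dry and Rehydrated libraries by the log2 ratio of Rehydrated replicate 2 to replicate 1 on the deposited scale, in bins 0.5 wide (x, log2; y, genes), and numbered discs mark the 12 members at their ratio, stacked only to keep them legible. Members 2 to 7 and 9 lie in the left tail, and members 1, 11 and 12 lie right of 0.

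Whether the members were still at the Dry level 1 h after rewetting therefore differed between the Rehydrated libraries. Replicate 1 was above both Dry libraries in members 1, 4, 6 and 7. It was between them in a further 3 members and below both in the other 5 members. Its values ran from 0.275 to 2.21 times mean Dry. Replicate 2 was below both Dry libraries in 10 of 12 members. It was 4.85-fold to 24.1-fold below mean Dry in members 2 to 7 and 9, beyond the 4-fold limit, and 2.02-fold to 3.38-fold below in members 8 and 10 to 12. In member 1 it was 4.31 times mean Dry. With replicate 2 as the only Rehydrated library, 7 genes met the rule, 4 of them members (8, 10, 11 and 12). With replicate 1 as the only one, 104 genes met it, all 12 members among them. The name of the set as retained after rewetting thus holds for the mean of the libraries. The rule was met with either library alone by 4 of the 12 members. In replicate 2, members 2 to 7 and 9 lay below the limit on the means, and member 1 lay above it.

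The fit over all genes was used to place the members' changes. In Dry against Hydrated all 12 members were called higher by edgeR (adjusted p from 0.00169 to 0.0296), where 7.7% of the 16190 genes tested were called higher. Their median log2 fold change was 5.67, with a range of 2.99 to 9.48, against a median of -0.50 over all genes. In Dry against Late desiccation all 12 were called higher (9.97% of all genes), with log2 fold changes of 2.41 to 11.24, the highest of which belongs to member 9 with no counts in Late desiccation and is no measure of size. In Rehydrated against Hydrated 11 of 12 were called higher (2.24% of all genes), and member 12 was not (log2 fold change 3.57, SE 1.14, edgeR adjusted p = 0.0919). The rule used these contrasts, so nothing is read from the members' counts against those shares.

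These calls changed for some members when single libraries were left out. The share of all genes called in the fits of this paragraph is not given here, so their counts are a description of the members only. Without Hydrated replicate 1 the Rehydrated calls went from 11 to 0, and a fit of these stages alone also gave 0. Without Hydrated replicate 2 they went to 7, with members 1, 2, 8 and 10 lost. The Dry calls against Hydrated lay between 9 and 12 when a library was left out. Besides member 1, member 12 was lost without either Hydrated library, and members 11 and 12 without Dry replicate 2. Against Late desiccation, members 11 and 12 were lost without either Late desiccation library or Dry replicate 2, member 6 without Late desiccation replicate 2, member 10 without Dry replicate 2, and member 1 without any single library of the stages other than Rehydrated. In Rehydrated against Hydrated, member 11 was also lost without any single library of Early desiccation, Late desiccation or Dry, and without Rehydrated replicate 2.

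None of the 16190 genes tested was called by edgeR while the drops lost water, so these contrasts do not show whether the members were stable. For DESeq2 and limma voom only the members' calls are given here. In Early desiccation against Hydrated, 0 of 12 members were called by edgeR, 0 had an unadjusted p under 0.05, and DESeq2 and limma voom with library weights called 0. Of all genes tested, edgeR called 0%, and 11.0% had an unadjusted p under 0.05. The members' log2 fold changes ran from -2.45 to 0.69, with a median of -0.59 against -0.07 for all genes. In Late desiccation against Hydrated the result was the same in count, with 0 of 12 called by edgeR and 0 by DESeq2 and limma voom. Again 0 members had an unadjusted p under 0.05. Of all genes tested, edgeR called 0%, and 9.55% had an unadjusted p under 0.05. Log2 fold changes ran from -3.51 (member 9, no counts in Late desiccation) to 0.89 (member 6), with a median of -0.19.

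**Figure D4:**
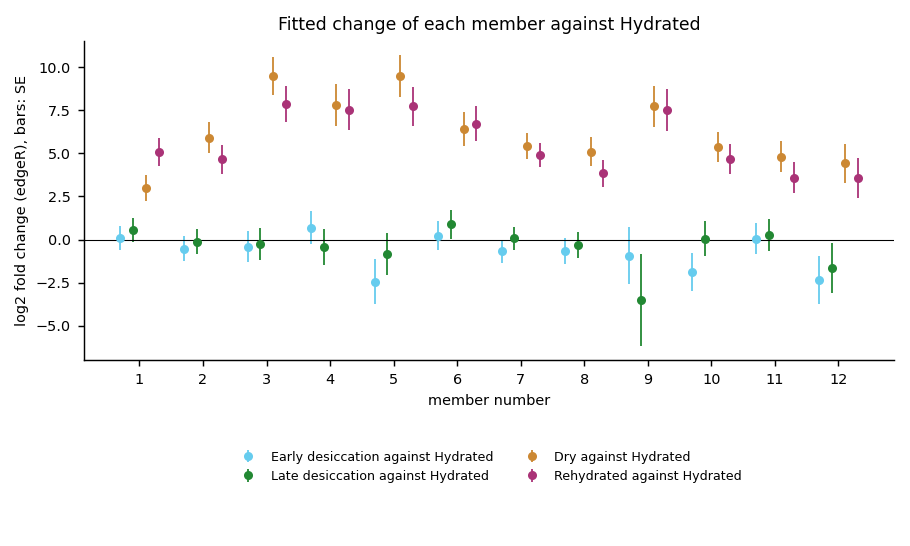
Points are the fitted log2 fold changes of the 12 members against Hydrated (edgeR, y) for Early desiccation, Late desiccation, Dry and Rehydrated, with bars of 1 SE, by member number (x). Early and Late desiccation lie between -3.51 and 0.89, and Dry and Rehydrated lie between 2.99 and 9.48; member 9 in Late desiccation is fitted to libraries with no counts.

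No member was called in Rehydrated against Dry by edgeR (0 of 12, adjusted p from 0.0728 to 0.872), a contrast that the rule held within 4-fold. Of all genes 16.7% were called. Only member 1 had an unadjusted p under 0.05, where 35.9% of all genes did. DESeq2 called 1 member (member 1) and limma voom called 0. The log2 fold change was negative in 10 members and positive in members 1 and 6 (2.08 and 0.32). It was positive in 4 members under total counts, and in 4 under upper-quartile scaling, so the sign of the small changes depends on the scaling. Member 5 was at -1.75 (SE 0.84, edgeR adjusted p = 0.160) and member 3 at -1.60 (SE 0.77, edgeR adjusted p = 0.158). Without Rehydrated replicate 1, 7 members were called, in a fit that called 24.6% of the 20066 genes it tested. That fit compares replicate 2 alone with Dry, and assumes that this lone library varies as the other stages do. Members 5, 3 and 2 were then at -4.17, -3.70 and -3.11 (edgeR adjusted p = 0.00172, 0.00231 and 0.00466; over all alternatives from these values up to 0.366, 0.475 and 0.533), and member 1 was at 2.51.

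The scaling between libraries bears on all of these levels. The deposited values sum to 535618 in the lowest library and 2610432 in the highest, Rehydrated replicate 2, a ratio of 4.87. As plain shares of each library's counts, without any scaling factor, all 12 members were above every earlier library in each of the 4 Dry and Rehydrated libraries. In Dry replicate 1 the share was 1.82 to 224 times the highest earlier share, and in Rehydrated replicate 1 it was 2.09 to 185 times. In Rehydrated replicate 2 it was 1.57 to 11.98 times, with member 2 lowest and member 3 highest. On this scale 3 genes met the rule, members 3, 5 and 9, and with the deposited values brought to the same sum 1 gene did, member 9. In Dry against Hydrated the median over all genes moved under total counts from -0.50 to -1.96 on the log2 scale. All 12 members stayed positive there and in Rehydrated against Hydrated under every scaling tried, with a median of 4.19 and 3.57 under total counts. The rule chose the members by a gap in these same libraries, which largely fixes such signs and shares in advance. They are a description, and nothing is read from them.

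Members 2 to 12 together took 0.0106% ± 0.00106 of all counts in Hydrated, 0.00729% ± 0.00231 in Early desiccation and 0.00719% ± 0.000750 in Late desiccation (SD, n = 2 each). They took 0.303% and 0.425% in the Dry libraries. In Rehydrated they took 0.405% in replicate 1 and 0.0321% in replicate 2, and the latter was still above every earlier library, of which the highest had 0.0114%. The set as a whole took 1.26% ± 0.0447 in Dry and 2.97% ± 0.391 in Rehydrated, most of it member 1.

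**Figure D5:**
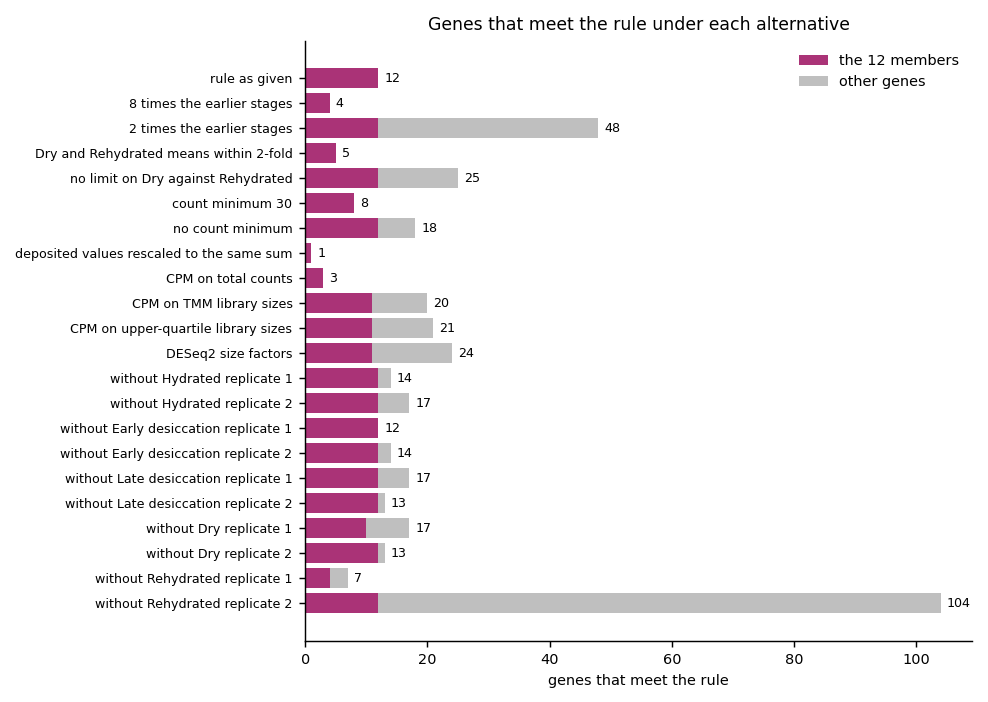
Bars count the genes that meet the rule (x) as given and under each alternative (y), split into the 12 members and other genes. The count runs from 1, with values brought to the same sum, to 104, without Rehydrated replicate 2.

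The split of the libraries allowed the gap to be measured on each side of it. On the side of both Dry libraries, the lower Dry value was 4.32 to 582 times the highest of both Early desiccation libraries and replicate 1 of Hydrated and of Late desiccation, with member 1 lowest and member 5 highest. On the side of both Rehydrated libraries, the lower Rehydrated value was 4.10 to 47.5 times the higher of replicate 2 of Hydrated and replicate 2 of Late desiccation, with member 8 lowest and member 4 highest. The rule demands at least 4 on both sides. With a split term, 10 members were called in Dry against Hydrated, 11 in Dry against Late desiccation and 10 in Rehydrated against Hydrated. Lost against the fit without it were members 1 and 12, member 1, and member 11, in that order. In Rehydrated against Dry 0 were called with it. The rule used all of these contrasts, and the share of all genes called in this fit is not given here. Nothing is therefore read from these counts.

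In properties that the rule did not use, the members were varied. Relative effective length ran from 0.0757 to 6.45, with a median of 0.954 against 0.990 over the 3075 genes. The 12 members came from 12 different assembly components, a component here being all genes that share the DN number of the identifier, whatever their c number. Of the 12, 6 were alone in their component in these tables. In 8 members every expected count was whole, which is what undivided reads give. Members 2, 8, 10 and 12 (4 of the 12) had values that were not whole, compared with 37.5% of the 3075 genes. Such values were found in 9, 1, 5 and 7 of the 10 libraries. The 1 of member 8 was 12.03 counts in Early desiccation replicate 1. Levels that rest on such values are uncertain, since reads can be divided with a near-identical copy. Pearson's r of log2(value + 0.1) over the 10 libraries had a median of 0.94 over the 66 pairs of members and ranged from 0.75 to 0.99. The rule fixes much of this likeness. Member 1 had the lowest median r with the others (0.81).

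The 13 genes with the same gap and a higher Dry mean were the set most like the members. Their mean Dry value had a median of 339 against 80.02 in the members, and their mean Rehydrated value 22.3 against 48.4. Their highest earlier value had a median of 0.963, against 0.907 in the members, and their median relative length was 0.914. Rehydrated replicate 1 was 0.0783 to 0.259 times mean Dry in these genes and 0.275 to 2.21 times in the members. Rehydrated replicate 2 was 0.0131 to 0.198 times mean Dry in these genes and 0.0415 to 4.31 times in the members. These ranges follow in part from the limit on the means and carry no test.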

How the data were processed

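RNA was sequenced in 10 libraries, 2 for each of 5 stages. Per the labels' protocols, libraries were made with a kit for Arabidopsis, and rRNA was removed with the help of 105 custom oligonucleotides. The submitters' processing notes name RSEM 1.2.28, Bowtie2 2.2, Trimmomatic 0.35, CASAVA 1.4 and DESeq2. The sources used here give neither the role of each tool nor the assembly. Deposited by the authors were expected counts per assembly gene (11.4% of values not whole) and a score, length-normalised expression divided by a TMM factor, judged from the table's name and values. Table columns begin with Scos and sample titles with Ecos, and they were matched by replicate number and time code, on which every stage assignment rests.

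The members were found on the deposited score. Expected counts were rounded, filtered by filterByExpr (minimum count 10, minimum total 15; 16190 genes, all 12 members among them) and fitted with edgeR 4.0.16 in R 4.3.3 by quasi-likelihood on TMM library sizes, with stage as the factor and 5 residual degrees of freedom. P-values were adjusted by Benjamini-Hochberg over all genes tested in a contrast, and a gene is called under 0.05. The SE is the absolute log2 fold change divided by the root of F. DESeq2 1.42.0 and limma 3.58.1 were alternatives, and the code was tested on simulated data. Members, lists and the split were chosen with earlier results of these data known. Identifiers are printed for the 2 members with the highest mean CPM over Dry and Rehydrated and the 2 with the most negative fitted change between them. The libraries of each stage differed beyond sampling noise (chi-square per degree of freedom 10.1 to 42.8), so none were merged. Counting intervals and floors (3 counts) cover counting error only, as reads carry no molecular identifiers.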

Additional observations from a re-analysis of the deposited data

How the results depend on the processing

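The number of genes that meet the rule depended on its limits and on the scaling. In place of 12 it was 4 with an 8-fold gap, 48 with a 2-fold gap, 5 with means within 2-fold and 25 with no limit on the means. It was 1 with values brought to the same sum, 3 on total counts, 20 on TMM library sizes, 21 on upper-quartile sizes and 24 with DESeq2 size factors, and the last 3 of these kept 11 members and lost member 1. It was 8 with a minimum of 30 counts and 18 with none. Without 1 library it lay between 7 and 104, both reached by leaving out a Rehydrated library, and between 12 and 17 without any other; without Dry replicate 1 members 3 and 11 were lost. The cause of these shifts was not tested.

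The members called in Dry against Hydrated, 12, lay between 9 and 12 without 1 library, and those in Dry against Late desiccation, 12, between 8 and 12. Those in Rehydrated against Hydrated, 11, were 6 at an adjusted p under 0.01, 0 in a fit of these stages alone and between 0 and 11 without 1 library. Those in Rehydrated against Dry, 0, were 1 under upper-quartile scaling, 1 by DESeq2 and between 0 and 7 without 1 library. Where a library is left out, the lone library of its stage is assumed to vary as the other stages do. The share of all genes called in these alternative fits is given above only for Rehydrated against Dry without Rehydrated replicate 1. Nothing is read from the counts of the others. Early and Late desiccation against Hydrated stayed at 0 under every alternative run. With the replicate number as a block, 12, 12, 11, 0, 0 and 0 members were called in the 6 contrasts, as without it. The numbers were not taken to pair the libraries, since 3 of 10 correlations of same-numbered deviations between stages were over 0.1 (range -0.06 to 0.34). Depth limits members 3, 5 and 9 to 12 most, which had 17 or fewer counts in each earlier library.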

Other observations

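Other assembly genes of the members' components gave values that belong in no comparison above. The component of member 1, by its DN number, held 19 other genes in the tables, of which 16 were tested. Their identifiers carry other c numbers (c61 and c63 to c65) than that of member 1 (c7). By edgeR, 4 of these were called higher in Dry against Hydrated (7.7% of all genes) and 0 lower, and 7 were called higher in Rehydrated against Hydrated (2.24% of all genes) and 1 lower. The gene there with a course most like that of member 1, chosen after its values were seen, was at 215 and 171 in Hydrated, 151 and 264 in Early desiccation, 192 and 203 at Late desiccation, 781 and 835 in Dry, and 1608 and 3297 in Rehydrated. Its lowest Dry or Rehydrated value was 2.96 times its highest earlier value, short of the 4-fold gap. Of the 8 tested genes in the component of member 3, 3 were called higher in Dry against Hydrated and 0 in Rehydrated against Hydrated by edgeR, beside the same shares of all genes. For member 2 these were 1 and 0 of 2 tested genes, and for members 8 and 10 0 and 0 of 1 each. The 1 other gene beside member 12, with the same c number, was called higher in Dry but not in Rehydrated. It was at 0.643 to 1.327 before drying, 50.3 and 46.1 in Dry, and 11.9 and 0.287 in Rehydrated. Reads can be divided among near-identical genes, so these genes and the members are not taken as independent measurements. Every expected count of members 1 and 3 was whole, however. Member 12 had counts that were not whole in 7 libraries, and whether its reads were divided with the gene beside it was not tested.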
